A study of Mus musculus with 15 samples.

Results

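The nuclear-encoded subunits of the respiratory chain were followed as 86 genes of the 15258 listed, chosen by gene ID alone: 39 names of complex I (Ndufa, Ndufb, Ndufc, Ndufs and Ndufv with a number), 4 of complex II (Sdha to Sdhd), 9 of complex III (Uqcr genes and Cyc1), 17 of complex IV (Cox4i, Cox5, Cox6, Cox7 and Cox8) and 17 of complex V (Atp5). A further 6 names ending in -ps, which mark pseudogenes, were left out. The RNA came from the left ventricle of male C57BL/6NRj mice and was measured by BRB-seq, a bulk method that tags each RNA sample with a barcode and sequences transcripts from the 3′ end. TAC NRG mice had transverse aortic constriction (TAC), a band on the aortic arch that overloads the left ventricle with pressure, and a minipump with the growth factor neuregulin-1 (NRG). TAC saline mice had the same constriction and a saline pump, and sham saline mice had sham surgery and a saline pump. Each group had 5 libraries, all labelled batch 1, and a sham group given NRG was not analysed here. The sources used here give no age, dose or time after surgery. The labels do not say that each library is a separate mouse. The p-values below thus judge group differences against the spread between libraries, which may not be that between mice.

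The respiratory chain passes electrons from NADH (complex I) and succinate (complex II) through ubiquinone, complex III and cytochrome c to oxygen at complex IV, and complex V, the ATP synthase, makes ATP from the proton gradient that complexes I, III and IV build. Most of its subunits are encoded in the nucleus, while a few of the proton-pumping core are encoded in mitochondrial DNA (mtDNA), so that assembly needs both sets. The heart depends on oxidative ATP supply, and lower expression of oxidative genes is a known feature of pressure-overloaded and failing hearts. Complex II has no mtDNA-encoded subunit and also serves the citric acid cycle. Ndufa4 is counted with complex I by its name, although its protein is now known as a subunit of complex IV, and Cox7a2l, counted with complex IV, encodes a factor that helps join complexes III and IV.

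Libraries held 2017463 to 5621771 reads. Levels are given in CPM, read counts scaled to a common library size, here with the authors' own scaling, which differs from division by the total. Cardiomyocyte markers were abundant, with summed levels of 73594 to 92505 CPM in the TAC NRG, 74114 to 89894 CPM in the TAC saline and 84653 to 91101 CPM in the sham saline libraries, and all 10 of them were tested. Of the 86 members, 82 passed a filter of 2.95 CPM by total reads in at least 5 libraries. The other 4, Ndufa11b, Ndufs6b, Cox6c2 and Cox7b2, averaged 0.577 to 2.13 CPM in the groups. Many of these genes have processed pseudogenes or near-identical copies in the genome, and the sources used here do not say how the authors' counting divided such reads. Atp5l, which encodes a membrane subunit of complex V, stood at only 6.67 CPM, and Atp5g2, 1 of 3 genes for the same c-ring protein, at 7.94 CPM over all libraries, so these counts are uncertain.

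Several upstream regions are shown for a string that some of these genes carry. The nuclear respiratory factor NRF1 binds a palindrome-like GC-rich site and is known to activate respiratory chain genes. RefSeq promoter windows on GRCm38.p6 matched 67 of the 86 members by symbol, and the 250 bases upstream of each annotated start were searched on both strands for GCGCA and GCGC with any 1 base between them (NRF1). That string stood in 13 of the 67 members (19.4%), in 4.23% of all 27025 genes with a window and in 9.57% of the 8697 tested genes with one. Capitals mark it in the whole upstream windows of Sdha and Sdhd, the 2 genes at the opposite ends of the complex II response, and in the matches of 3 other genes that fell in TAC saline ventricles. Cox7a1, which had the largest called decrease, has no match in its window and is printed for comparison. Sequences run 5′ to 3′ on the gene's strand, on GRCm38.p6.
Sdha (chr13:74350241-74350490, minus strand): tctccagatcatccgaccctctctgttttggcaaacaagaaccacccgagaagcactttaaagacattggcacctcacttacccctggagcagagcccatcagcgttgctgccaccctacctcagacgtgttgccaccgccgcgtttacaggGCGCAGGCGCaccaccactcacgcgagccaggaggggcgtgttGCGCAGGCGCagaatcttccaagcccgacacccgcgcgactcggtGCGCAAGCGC
Sdhd (chr9:50603850-50604099, minus strand): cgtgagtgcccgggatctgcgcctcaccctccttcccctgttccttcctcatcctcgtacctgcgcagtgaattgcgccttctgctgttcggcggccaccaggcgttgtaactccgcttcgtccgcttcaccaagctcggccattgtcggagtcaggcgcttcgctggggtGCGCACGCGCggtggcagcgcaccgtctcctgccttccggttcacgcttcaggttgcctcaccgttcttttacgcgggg
Cox7a1 (chr7:30183921-30184170, plus strand): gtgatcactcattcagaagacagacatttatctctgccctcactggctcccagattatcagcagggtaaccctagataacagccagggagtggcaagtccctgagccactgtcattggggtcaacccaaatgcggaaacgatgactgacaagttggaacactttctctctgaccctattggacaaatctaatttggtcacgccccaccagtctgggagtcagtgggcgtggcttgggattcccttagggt
Ndufa5 (chr6:24527697-24527726, minus strand): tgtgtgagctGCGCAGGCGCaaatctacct
Ndufs6 (chr13:73328483-73328508, minus strand): cgactgctgtGCGCCTGCGCcggcac
Atp5k (chr5:108434430-108434459, minus strand): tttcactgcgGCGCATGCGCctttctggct
The Sdha window holds matches beginning at positions -98, -55 and -10 from the start site, and the Sdhd window holds 1, at -79. ERR's AAGGTCA was found in 5 of the 67 members (7.46%, against 3.45% of tested genes), an ETS string CCGGAAG in 12 (17.9%, against 16.1%) and CCAAT in 29 (43.3%, against 40.4%), and none of the 4 strings contains another. A match is a description of the letters and does not show binding.

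Pressure overload without treatment came with lower levels of 24 of the 82 tested members, and most of the others had negative values that did not pass the test. Values that did not pass could be as large as called ones, with -0.38 for Ndufb4 against -0.23 for Ndufa10, which passed. An unadjusted limma p under 0.05 was found for 64 of the 82 and for 2662 of all 11018 tested genes. In TAC saline against sham saline ventricles, 79 of the 82 tested members had a negative log2 fold change, where 50.9% of all 11018 tested genes did, and 3 had a positive one (49.1% of all). The median over members was -0.24, a level 15.6% lower, and the median over all tested genes was -0.01. By limma with Benjamini-Hochberg adjustment over all genes, 24 members fell and 0 rose at an adjusted p under 0.05, where 4.24% of all tested genes fell and 6.47% rose. The members had a median SE of 0.09, against 0.16 over all tested genes, so a smaller difference could pass in them. With a filter of 10 CPM in at least 5 libraries, 25 of 79 members and 6.04% of all tested genes fell. The 5 TAC saline values all lay below the 5 sham saline values for 17 members, against 3.68% of all tested genes, and above them for 0 members, against 4.72%. The 24 were 12 of 37 in complex I, 2 of 4 in complex II, 0 of 9 in complex III, 6 of 15 in complex IV and 4 of 17 in complex V. The medians of the complexes were -0.25, -0.26, -0.19, -0.27 and -0.25 in the same order, so they differed less from each other than single members differed within a complex.

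**Figure D1:**
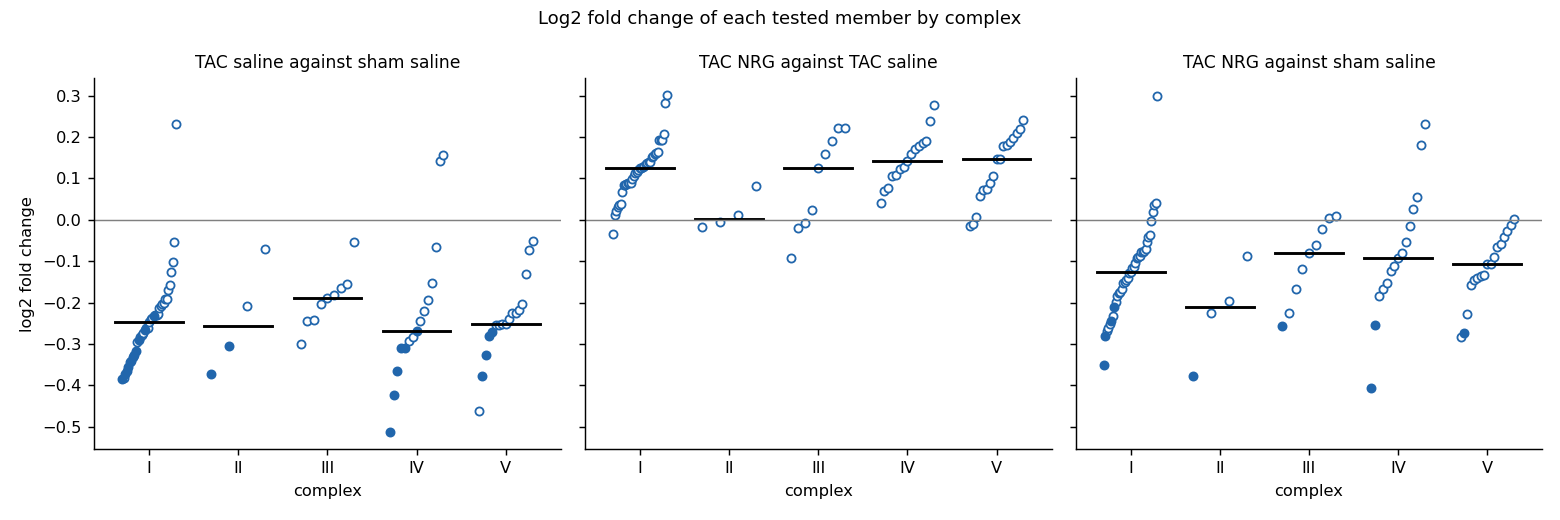
Log2 fold change of each of the 82 tested members (circles) by complex in the 3 comparisons, with filled circles for an adjusted p under 0.05 and a bar for the median of each complex. In TAC saline against sham saline all medians lie between -0.27 and -0.19, in TAC NRG against TAC saline 74 members lie above 0 with none filled, and in TAC NRG against sham saline 9 are filled, all below 0.

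The libraries of a group were not alike, and the counts depend on that. The summed level of all 86 members was 60990, 63852, 55072, 69756 and 69684 CPM in TAC NRG replicates 1 to 5, against 58108, 62121, 68382, 57116 and 53162 CPM in TAC saline and 69928, 70703, 71348, 67851 and 70602 CPM in sham saline. TAC NRG replicates 4 and 5 and TAC saline replicate 3 thus lay within the sham saline range of 67851 to 71348 CPM, and the other 7 libraries of constricted hearts lay below it. TAC NRG replicates 4 and 5 were also the shallowest libraries, with 2017463 and 2131137 reads, and had the largest shares of haemoglobin reads, 0.366% and 0.350%, where the other 13 libraries had 0.0888% to 0.222%. TAC saline replicate 3 had the lowest fibroblast marker sum of its group, 1386 CPM, against 1898 to 2633 CPM in the other 4. The part of these differences in the results was not tested. Without TAC saline replicate 3, 53 members fell in TAC saline against sham saline, where 5.86% of all tested genes fell. Leaving out another library of the pair of groups gave 8 (without TAC saline replicate 5), 10 (TAC saline 4), 12 (sham saline 3), 14 (TAC saline 1, and likewise sham saline 2), 15 (sham saline 1), 16 (sham saline 5), 21 (sham saline 4) and 22 (TAC saline 2). Without TAC NRG replicates 4 and 5, which enter only through the shared estimate of spread, 36 fell. The share of all tested genes that fell, 4.24% with all libraries, moved as well. It was 5.27% in this last fit, 1.82% without TAC saline replicate 5 and 4.03% without TAC saline replicate 2.

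**Figure D2:**
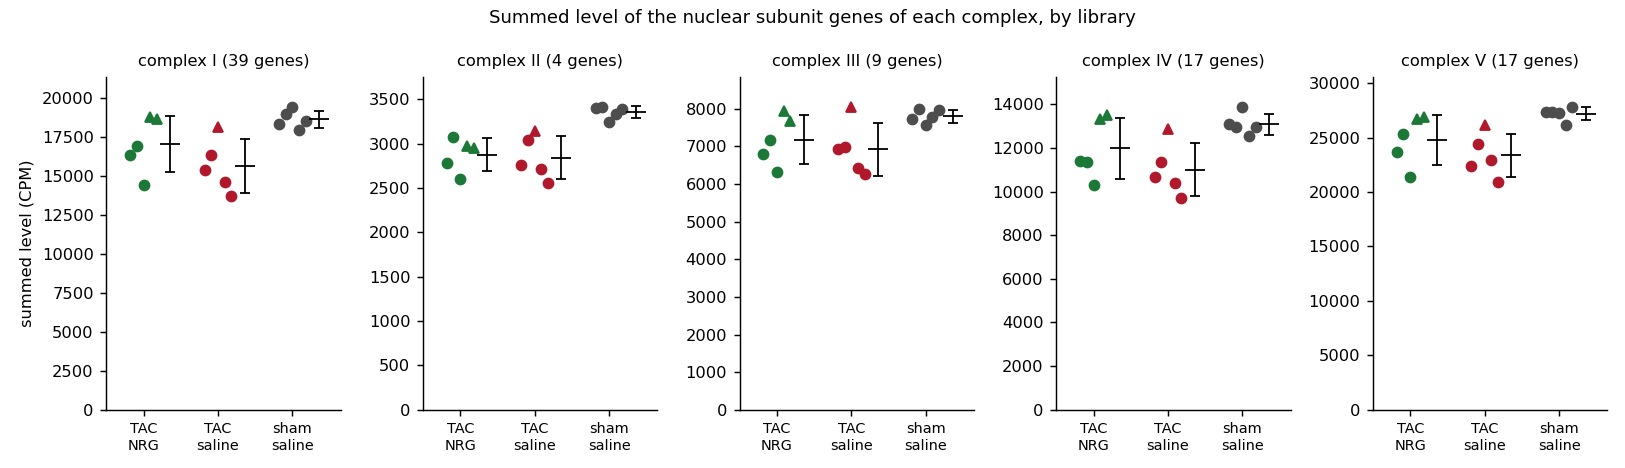
Summed level in CPM of the nuclear subunit genes of each complex in every library, in TAC NRG, TAC saline and sham saline ventricles, with the mean and SD of the 5 libraries beside the points. Triangles mark TAC NRG replicates 4 and 5 and TAC saline replicate 3, which stand within or near the sham saline values for complexes I, III, IV and V and below all of them for complex II.

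The catalytic core of complex I is formed by the subunits that hold the flavin, the iron-sulphur clusters and the ubiquinone site. Of its 7 members 4 fell, among them Ndufs7, Ndufv1 and Ndufs1, and 8 of the 30 other tested members of the complex did. The medians were -0.32 for the core and -0.24 for the others, and the difference between these subsets was not tested.

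Ndufs1, the largest iron-sulphur subunit, had 361, 419, 371, 404 and 377 CPM in TAC NRG, 383, 403, 453, 381 and 361 CPM in TAC saline and 482, 515, 519, 450 and 499 CPM in sham saline ventricles. Its TAC NRG values lay below all sham saline values, and 1 TAC saline value (replicate 3) overlapped them. The log2 fold change was -0.32 ± 0.07 in TAC saline against sham saline (SE, limma adjusted p = 0.00642). Ndufs7, which carries the last iron-sulphur cluster before ubiquinone, had a log2 fold change of -0.36 ± 0.09 (limma adjusted p = 0.00855), and Ndufv1, the NADH-oxidising flavoprotein, one of -0.33 ± 0.08 (limma adjusted p = 0.0101). Ndufs3, Ndufs8 and Ndufv2, also of the core, had log2 fold changes of -0.20, -0.24 and -0.19, none past the threshold.

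Among accessory subunits of complex I, the largest called decreases were in Ndufa5 and Ndufa9, which sit on the arm that faces the matrix. Ndufa5 had 110, 101, 83.7, 139 and 128 CPM in TAC NRG, 101, 106, 138, 90.4 and 83.1 CPM in TAC saline and 141, 140, 127, 131 and 128 CPM in sham saline ventricles. The TAC saline value of replicate 3 lay inside the sham saline range and the other 4 lay below it, and the log2 fold change was -0.38 ± 0.12 (limma adjusted p = 0.0453). That call was lost in 9 of 10 fits that left out a library, while 8 members were called in all 10, among them Ndufs1, Ndufs7, Ndufv1, Ndufb11, Sdha, Cox4i1 and Cox7a1. Ndufa9 had a log2 fold change of -0.37 ± 0.11 (limma adjusted p = 0.0268). Ndufs6, Ndufb11, Ndufa3, Ndufa4, Ndufa2 and Ndufa10 also fell, by log2 fold changes between -0.36 and -0.23. Ndufb3 and Ndufa11, both of the membrane arm, had the smallest differences, -0.05 and -0.10. Ndufa4l2, a paralogue of Ndufa4 that low oxygen is known to induce, had the only positive value in the complex, 0.23 ± 0.14 (limma adjusted p = 0.344), at 20.04, 21.1, 18.0, 24.4 and 24.1 CPM in TAC NRG, 24.7, 17.9, 16.8, 22.6 and 21.0 CPM in TAC saline and 19.9, 18.6, 17.4, 13.0 and 19.0 CPM in sham saline ventricles.

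The 4 genes of complex II gave a graded picture. Sdha, the flavoprotein that oxidises succinate, had 674, 780, 635, 702 and 738 CPM in TAC NRG, 671, 775, 767, 697 and 633 CPM in TAC saline and 942, 918, 967, 838 and 915 CPM in sham saline ventricles. No library of either constricted group reached the lowest sham saline value. In TAC saline against sham saline the log2 fold change was -0.37 ± 0.08 (limma adjusted p = 0.00216), the smallest adjusted p of any member in that comparison. Sdhb, the iron-sulphur subunit that takes electrons from Sdha, had 693, 752, 647, 806 and 748 CPM in TAC NRG, 672, 763, 789, 625 and 606 CPM in TAC saline and 817, 864, 847, 864 and 856 CPM in sham saline ventricles. Its TAC saline values also lay below every sham saline value, with a log2 fold change of -0.31 ± 0.08 (limma adjusted p = 0.0139). Of the 2 membrane anchors, Sdhc had a log2 fold change of -0.21 ± 0.08 (limma adjusted p = 0.112) and Sdhd one of -0.07 ± 0.06 (limma adjusted p = 0.570).

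Sdhd had 642, 727, 676, 702 and 697 CPM in TAC NRG, 707, 716, 739, 668 and 658 CPM in TAC saline and 756, 743, 695, 744 and 721 CPM in sham saline ventricles, and its groups overlapped. The 95% interval of its log2 fold change ran from -0.20 to 0.06 in TAC saline against sham saline, and that of Sdha from -0.53 to -0.22. The ratio of Sdha to Sdhd reads does not depend on how libraries are scaled. It was 1.05, 1.07, 0.939, 0.999 and 1.06 in TAC NRG, 0.949, 1.08, 1.04, 1.04 and 0.962 in TAC saline and 1.25, 1.24, 1.39, 1.13 and 1.27 in sham saline libraries. The ratios of both constricted groups therefore lay below all 5 sham saline ratios, including those of the 3 libraries that stood apart in their summed levels. This pair was chosen after the values were seen, and no test is given.

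No member of complex III passed the threshold in TAC saline against sham saline, although all 9 had negative log2 fold changes and 6 had an unadjusted p under 0.05. Without TAC saline replicate 3, 5 of the 9 fell, and without that library and TAC NRG replicates 4 and 5, 7 did. The shares of all tested genes that fell were then 5.86% and 7.12%. With all libraries the smallest adjusted p was 0.0645, for Uqcr10, a small subunit, with -0.25 ± 0.08. The Rieske iron-sulphur protein gene Uqcrfs1 had -0.19 ± 0.07, and Uqcrc1 and Uqcrc2, which encode the core proteins, had -0.20 ± 0.09 and -0.16 ± 0.07. Cyc1, which encodes cytochrome c1, had 885, 970, 807, 1029 and 970 CPM in TAC NRG, 949, 898, 1087, 860 and 892 CPM in TAC saline and 1015, 1032, 772, 1012 and 1046 CPM in sham saline ventricles. Its groups overlapped, with the lowest of the 15 values in sham saline replicate 3, and its log2 fold change was -0.05 ± 0.09. Uqcrh, at -0.16, had the next smallest difference.

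In complex IV, the muscle isoforms Cox7a1 and Cox8b had the largest called decreases of all members. Several subunits of this complex exist as a form of heart and skeletal muscle (Cox6a2, Cox7a1, Cox8b) and a widely expressed form (Cox6a1, Cox7a2, Cox8a). Cox7a1 had 187, 184, 134, 211 and 213 CPM in TAC NRG, 156, 169, 232, 171 and 138 CPM in TAC saline and 237, 259, 248, 252 and 222 CPM in sham saline ventricles. All TAC NRG values and 4 of 5 TAC saline values lay below the lowest sham saline value, with TAC saline replicate 3 inside the sham saline range. The log2 fold change of TAC saline against sham saline was -0.51 ± 0.12, a level 29.9% lower (limma adjusted p = 0.00623). Cox8b had 59.8, 59.9, 53.4, 83.4 and 74.9 CPM in TAC NRG, 58.6, 56.4, 67.4, 45.4 and 51.6 CPM in TAC saline and 78.8, 71.1, 83.7, 65.4 and 73.8 CPM in sham saline ventricles. TAC saline replicate 3 and TAC NRG replicates 4 and 5 lay inside the sham saline range and the other 7 libraries of constricted hearts below it. In TAC saline against sham saline the log2 fold change was -0.42 ± 0.12 (limma adjusted p = 0.0214). Cox6a2, the third muscle form, had -0.25 ± 0.12 and did not pass (limma adjusted p = 0.197).

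**Figure D3:**
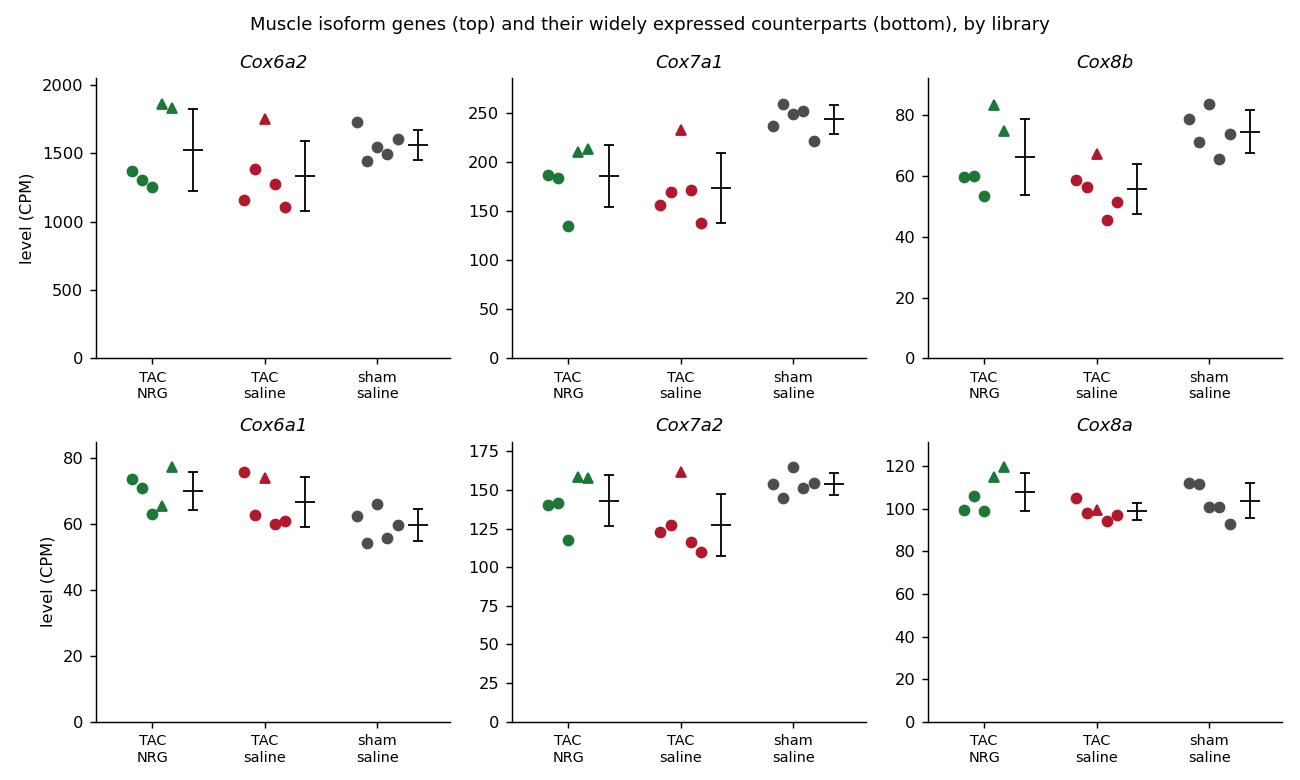
Level in CPM of the muscle isoform genes Cox6a2, Cox7a1 and Cox8b (top row) and of the widely expressed Cox6a1, Cox7a2 and Cox8a (bottom row) in every library of TAC NRG, TAC saline and sham saline ventricles, with mean and SD of 5 libraries. Triangles mark TAC NRG replicates 4 and 5 and TAC saline replicate 3, which hold the highest values of their groups in Cox6a2, Cox7a1 and Cox8b.

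The widely expressed forms had log2 fold changes of -0.28 ± 0.10 for Cox7a2, -0.07 ± 0.08 for Cox8a and 0.16 ± 0.09 for Cox6a1, none of which passed (limma adjusted p = 0.0593, 0.676 and 0.325). Cox7a2 made up 43.7% ± 1.70 of the reads of the Cox7a pair in TAC NRG, 42.6% ± 1.78 in TAC saline and 38.8% ± 2.06 in sham saline libraries (SD, n = 5 each). The TAC NRG shares, from 42.5% to 46.7%, lay above all sham saline shares, from 35.9% to 41.1%, while the TAC saline shares began at 40.5% and overlapped them. Cox8a made up 62.2% ± 2.71, 64.1% ± 2.89 and 58.2% ± 2.89 of its pair in the same order of groups, and Cox6a1 made up 4.49% ± 0.767, 4.84% ± 0.838 and 3.67% ± 0.236. Both of these ranges overlapped between groups. These shares use the reads of 1 library at a time and do not depend on scaling.

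Cox4i1, the common form of subunit 4, had 2257, 2082, 1982, 2393 and 2545 CPM in TAC NRG, 1968, 2206, 2440, 2044 and 1793 CPM in TAC saline and 2579, 2644, 2979, 2569 and 2632 CPM in sham saline ventricles. All 10 values of constricted hearts lay below all sham saline values, and the log2 fold change of TAC saline against sham saline was -0.36 ± 0.09 (limma adjusted p = 0.0085). Cox4i2, a form known from lung and from low oxygen, stood at 6.12 CPM over all libraries and was 0.275% ± 0.0690, 0.303% ± 0.115 and 0.205% ± 0.0604 of the pair's reads in TAC NRG, TAC saline and sham saline libraries. Its log2 fold change was 0.14 ± 0.27. Cox7b, Cox5b and Cox6c also fell, with log2 fold changes of -0.31, -0.31 and -0.27. Cox6b1 and Cox7a2l had -0.15 ± 0.08 and -0.22 ± 0.08 and did not pass.

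In complex V, 4 members fell. Atp5e, the epsilon subunit of the catalytic head, had 364, 372, 349, 492 and 504 CPM in TAC NRG, 347, 397, 429, 326 and 285 CPM in TAC saline and 493, 438, 475, 430 and 460 CPM in sham saline ventricles. The TAC saline values all lay below the sham saline values, and the log2 fold change was -0.38 ± 0.11 (limma adjusted p = 0.0245). Atp5k, the membrane subunit e, had -0.33 ± 0.09 (limma adjusted p = 0.0171), and Atp5j, the coupling factor of the stalk, had -0.27 ± 0.08 (limma adjusted p = 0.0375). Atp5a1, the alpha subunit, had 3377, 3572, 3004, 3646 and 3740 CPM in TAC NRG, 3154, 3653, 3941, 3510 and 3034 CPM in TAC saline and 4190, 4128, 4232, 4040 and 4322 CPM in sham saline ventricles. Again no library of the constricted groups reached the sham saline values, and the log2 fold change was -0.28 ± 0.08 (limma adjusted p = 0.0335).

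The beta subunit gene Atp5b had -0.22 ± 0.08 and the gamma gene Atp5c1 -0.24 ± 0.08, neither past the threshold (limma adjusted p = 0.0995 and 0.0531). Atp5d, the delta subunit of the same head, had 1200, 1237, 1143, 1378 and 1334 CPM in TAC NRG, 1215, 1160, 1297, 1152 and 1144 CPM in TAC saline and 1270, 1246, 1206, 1289 and 1264 CPM in sham saline ventricles, with overlapping groups and a log2 fold change of -0.07 ± 0.07. Reads of Atp5a1 outnumbered those of Atp5d 2.76 ± 0.113 to 1 in TAC NRG, 2.90 ± 0.253 to 1 in TAC saline and 3.34 ± 0.141 to 1 in sham saline libraries (SD, n = 5 each). The TAC NRG ratios, from 2.63 to 2.89, lay below all sham saline ratios, from 3.13 to 3.51, while the highest TAC saline ratio, 3.15, lay just inside them, and this pair too was chosen after its values were seen. Of the 3 c-ring genes Atp5g1, Atp5g2 and Atp5g3, with -0.22, -0.05 and -0.13, 0 fell.

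**Figure D4:**
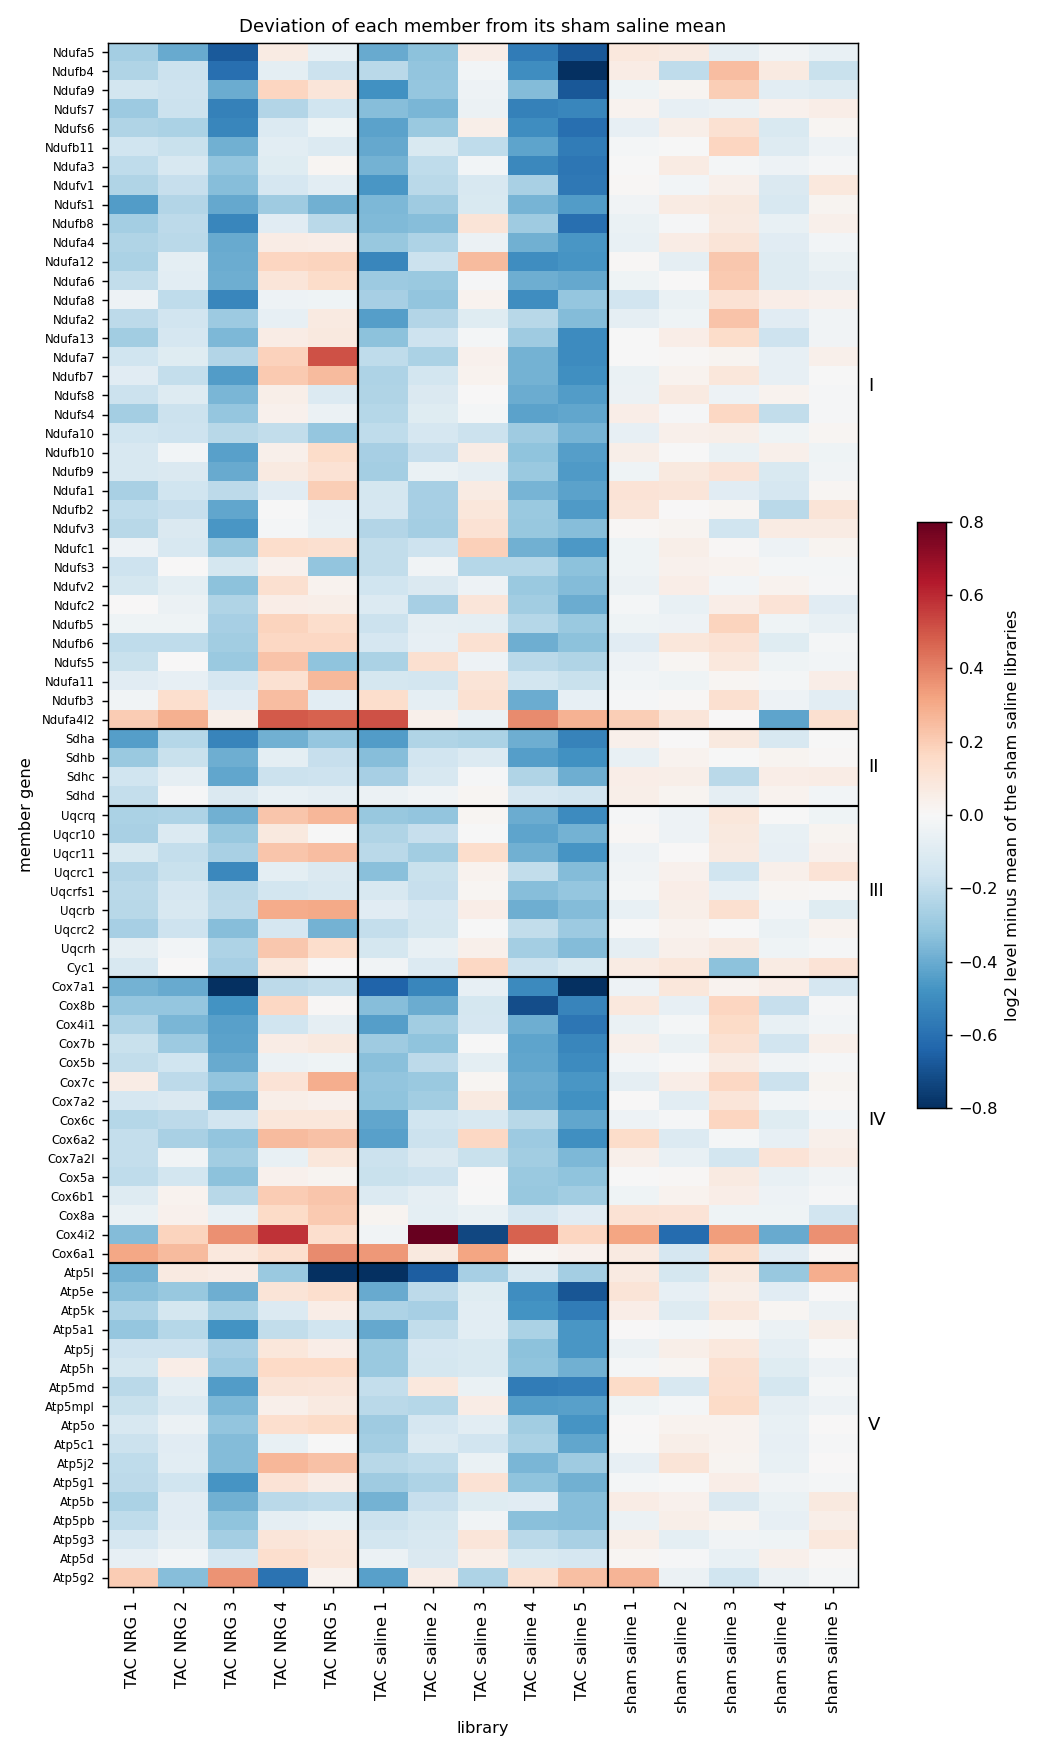
Log2 level of 81 of the 82 tested members (rows, by complex) minus its mean over the sham saline libraries, in every library (columns: TAC NRG, TAC saline, sham saline). Blue is lower and red is higher than the sham saline mean, and the median over all tested members is -0.20, -0.13, -0.33, 0.06 and 0.04 in TAC NRG replicates 1 to 5 and -0.27, -0.18, -0.02, -0.33 and -0.42 in TAC saline replicates 1 to 5.

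NRG in the constricted ventricle gave no called difference in these genes. In TAC NRG against TAC saline, 0 of 82 members passed in either direction by limma, where 0.626% of all tested genes fell and 0.672% rose. An unadjusted limma p under 0.05 was found for 11 of the 82 members and for 1691 of all 11018 tested genes. With voom weights on the recovered reads 0 passed as well. The values leaned upward: 74 of the 82 were above 0, where 49.2% of all tested genes were, with a median of 0.12 against -0.01 over all tested genes. The ranges of the groups separated for 0 members, where 1.25% of all tested genes lay wholly lower and 1.81% wholly higher in TAC NRG, and 8 members were below 0, against 50.8% of all. Medians were 0.12 in complex I, 0.00 in complex II, 0.13 in complex III, 0.14 in complex IV and 0.15 in complex V. The lean was smaller without TAC NRG replicates 4 and 5: the median was then 0.02, with 57 members above 0. Without these and TAC saline replicate 3 it was 0.08, with 74 above 0. Without TAC saline replicate 3 alone the median was larger, 0.18, with 78 above 0. Leaving out TAC NRG replicate 3 instead gave 1 called member, Atp5h, a stalk subunit of complex V, with 0.31 (limma adjusted p = 0.048, where the full comparison gave 0.24 and an adjusted p of 0.179). Of all 11018 tested genes, 85 fell and 87 rose without that library.

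Ndufa7, an accessory subunit of complex I, had the largest log2 fold change of TAC NRG against TAC saline, 0.30 ± 0.11 (limma adjusted p = 0.197). It had 149, 156, 142, 190 and 237 CPM in TAC NRG, 145, 140, 171, 128 and 118 CPM in TAC saline and 166, 167, 169, 159 and 171 CPM in sham saline ventricles. The 2 highest of the 15 values were those of TAC NRG replicates 4 and 5. Sdha had -0.01 ± 0.08 in TAC NRG against TAC saline, with a 95% interval from -0.16 to 0.15. Intervals ran from -0.19 to 0.12 for Ndufs1, from -0.24 to 0.05 for Uqcrc2, from -0.14 to 0.35 for Cox7a1 and from -0.07 to 0.29 for Cox4i1. The 8 members with a negative value were Sdha, Sdhd, Ndufs1, Uqcrc1, Uqcrc2, Cyc1, Atp5b and Atp5g2, none past the threshold.

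Set against sham saline ventricles, TAC NRG ventricles had lower levels of a small group of members. Of the 82 tested, 9 fell and 0 rose, where 7.39% of all tested genes fell and 8.74% rose, so the share of members that fell, 10.98%, was near that of all genes. Negative values were seen in 71 members (and in 52.0% of all tested genes), with a median of -0.11, and 13 members had all TAC NRG values below all sham saline values, against 5.45% of all tested genes. The 11 positive values compare with 48.0% of all tested genes, and 0 members had all TAC NRG values above all sham saline values, against 6.23%. This comparison shares its libraries with the other 2, so its values are given for themselves. Sdha had -0.38 ± 0.08 (limma adjusted p = 0.00107) and Ndufs1 -0.35 ± 0.07 (limma adjusted p = 0.00166), and with Uqcrc2 they were the 3 members called in every one of the 10 fits that left out a TAC NRG or sham saline library.

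Uqcrc2, a core protein of complex III, had 955, 1022, 906, 1045 and 885 CPM in TAC NRG, 1004, 1043, 1148, 1001 and 937 CPM in TAC saline and 1143, 1172, 1147, 1107 and 1172 CPM in sham saline ventricles. Its TAC NRG values lay below every sham saline value, with a log2 fold change of -0.26 ± 0.07 (limma adjusted p = 0.0146), and it was the only member of complex III called in any of the 3 comparisons. Cox7a1 had -0.41 ± 0.12 (limma adjusted p = 0.0201), Ndufs7 -0.28, Atp5a1 -0.27, Cox4i1 -0.26 and Ndufa10 -0.21. Cox6a1 had the highest positive value of complex IV, 0.23 ± 0.09 (limma adjusted p = 0.0918). The count depended on the libraries and the scaling. Without TAC NRG replicates 4 and 5, 18 members fell, against 5.28% of all tested genes. Without TAC NRG replicate 1, TAC NRG replicate 3 or sham saline replicate 5, 5 members fell each time, against 6.60%, 5.88% and 5.70%. Scaled by total reads alone, 3 members fell and 1 (Cox6a1) rose, where 3.94% of all tested genes fell and 1364 of 11018 rose. That scaling put the median of all genes at 0.10 in TAC saline against sham saline and at 0.08 in TAC NRG against sham saline, where it was -0.01 on the deposited scale in both. Under it the median of the members was -0.13 in TAC saline against sham saline, with 72 below 0, and -0.02 in TAC NRG against sham saline, with 46 below 0, and 9 members fell in TAC saline against sham saline, among them Ndufs1, Ndufs7, Ndufv1, Ndufa3, Ndufb11, Sdha, Cox4i1 and Cox7a1. In TAC saline against sham saline 1.73% of all tested genes fell under this scaling.

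Coding length ran along with the NRG values. Coding lengths were known for 80 tested members, from 156 to 2181 nucleotides. The 40 shorter genes (156 to 408 nucleotides) had, in TAC NRG against TAC saline, a median log2 fold change of 0.16, with 40 of 40 above 0, and the 40 longer genes (411 to 2181) had 0.08, with 32 of 40 above 0. Spearman's rho with coding length was -0.56 across the 80 members and -0.24 across all 10547 genes with a length, given as a description across genes that share libraries. In TAC NRG against sham saline, 1 of the 40 shorter and 8 of the 40 longer genes fell (medians -0.10 and -0.14), while TAC saline against sham saline gave 13 and 11 (medians -0.26 and -0.23, rho 0.07). The difference between the shorter and longer members, in median deviation from the sham saline mean, was 0.12 and 0.13 on the log2 scale in TAC NRG replicates 4 and 5 and -0.10 to 0.05 in the other 13 libraries. With a trend on transcript length across 10906 genes taken out of each library, a step added after seeing the data, the median of TAC NRG against TAC saline was 0.01, with 47 of 80 above 0. The same step gave 16 members that fell and 1 (Cox6a1) that rose in TAC saline against sham saline, and 18 that fell in TAC NRG against sham saline. Of all tested genes 4.42% and 7.13% fell in these comparisons with that step, and 701 of 10906 rose in TAC saline against sham saline. Whether length, depth or treatment set these values was not tested.

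**Figure D5:**
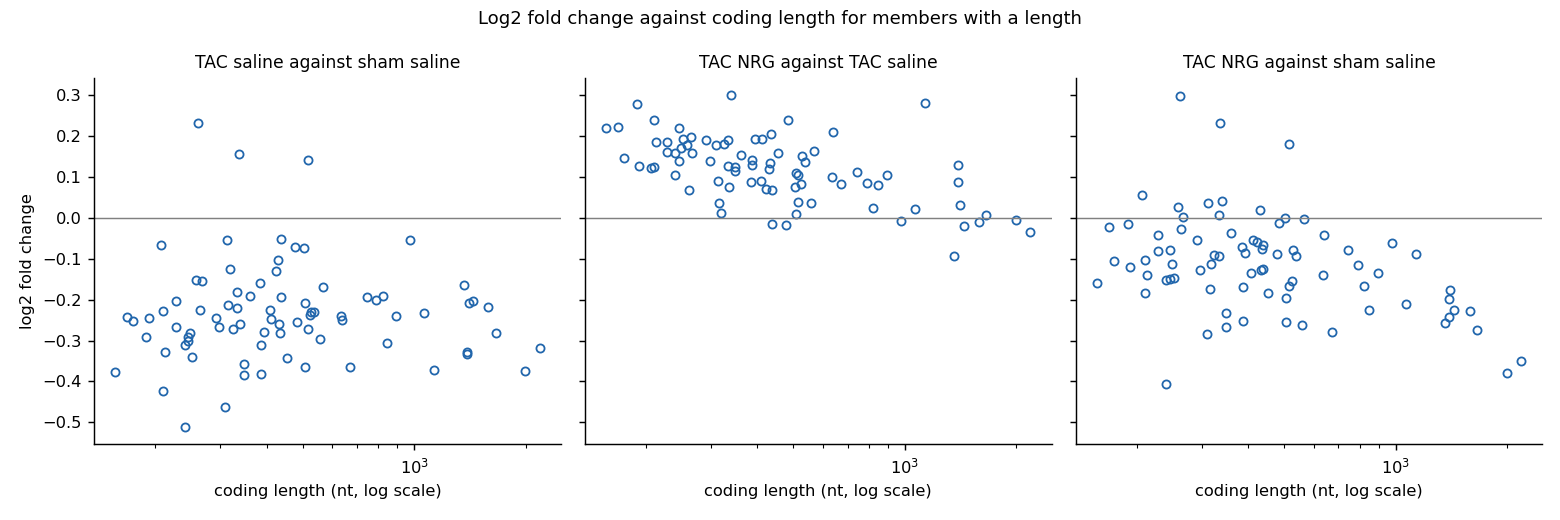
Log2 fold change of the 80 tested members with a known coding length (nucleotides, log axis) in the 3 comparisons, 1 circle per gene. In TAC NRG against TAC saline the values run downward with length (Spearman's rho -0.56), and in TAC saline against sham saline they do not (0.07).

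Of the tested members with a promoter window, 4 of 13 with the NRF1 string and 14 of 53 without it fell in TAC saline against sham saline. The 4 were Sdha, Ndufa5, Ndufs6 and Atp5k, whose letters are printed above, and Sdhd, Atp5c1, Atp5g2, Atp5h, Cox6a1, Ndufa11, Ndufa8, Ndufb4 and Ndufs5 carried the string and did not pass.

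Other genes of the pathway were read from fixed lists. Of the 7 tested mtDNA-encoded subunits, mt-Nd2 and mt-Nd5, core subunits of complex I, fell in TAC saline against sham saline (-0.44 ± 0.12 and -0.39 ± 0.10, limma adjusted p = 0.0216 and 0.0163), and both also fell in TAC NRG against sham saline (-0.37 and -0.59). The share of all reads from mtDNA-encoded genes was 25.8% ± 2.35 in TAC NRG, 27.7% ± 1.62 in TAC saline and 31.1% ± 0.473 in sham saline libraries (SD, n = 5 each), and with the total of all other reads as the only scaling 20 members fell in TAC saline against sham saline and 16 in TAC NRG against sham saline. Under that scaling 3.01% and 7.99% of all tested genes fell in these comparisons. Among assembly factors in TAC saline against sham saline, 1 of 17 for complex I fell (Ndufaf8, -0.37), 1 of 4 for complex II (Sdhaf4, -0.30), 1 of 6 for complex III (Ttc19, -0.39), and 0 of 5 for complex V, where 4.24% of all tested genes fell and 6.47% rose. For complex IV, 1 of 25 fell (Lrpprc, -0.36, which stabilises mitochondrial mRNAs) and 1 rose (Cox19, 0.42, a copper-handling factor). Of 15 genes for coenzyme Q synthesis and cytochrome c, 3 fell: Coq8a (-0.49), Coq9 (-0.44) and Coq2 (-0.28). Counts of 1 in a list of 17 or 25 are near the share of all genes.

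With NRG, 1 of these pathway genes passed in TAC NRG against TAC saline, Cox17, the copper chaperone of complex IV, with 77.2 ± 10.5 CPM in TAC NRG and 56.6 ± 9.16 CPM in TAC saline ventricles (SD, n = 5 each) and a log2 fold change of 0.45 (limma adjusted p = 0.0393). Against sham saline, of 25 assembly factors for complex IV, 2 rose in TAC NRG ventricles (Cox17, 0.33, and Cox19, 0.50) and 1 fell (Cox10, -0.36). Of 5 for complex V, 1 fell (Tmem70, -0.25). Of 15 genes for coenzyme Q synthesis and cytochrome c, 3 fell: Coq8a (-0.46), Coq9 (-0.35) and Coq10a (-0.36). For complexes I, II and III, 0 of 17, 0 of 4 and 0 of 6 assembly factors passed. Of all tested genes 0.626% fell and 0.672% rose in TAC NRG against TAC saline. The shares were 7.39% and 8.74% in TAC NRG against sham saline.

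The natural inhibitor of complex V, which blocks ATP hydrolysis when the proton gradient fails, is listed under its older symbol Atpif1 and so is no member by the naming rule. It had 432, 413, 417, 543 and 507 CPM in TAC NRG, 260, 273, 282, 237 and 251 CPM in TAC saline and 234, 238, 244, 214 and 239 CPM in sham saline ventricles. Every TAC NRG library lay above all libraries of the other 2 groups. It rose by 0.82 ± 0.08 on the log2 scale in TAC NRG against TAC saline (limma adjusted p = 3.06e-06) and by 0.98 ± 0.08 against sham saline (limma adjusted p = 2.14e-08), while its 0.16 ± 0.08 in TAC saline against sham saline did not pass (limma adjusted p = 0.247). Red cell markers moved with it: 5 of 6 rose in TAC NRG against TAC saline, and their sums were 1718 to 3503 CPM in TAC NRG, 987 to 1484 CPM in TAC saline and 908 to 2237 CPM in sham saline libraries. Reads of the near-identical globin copies in that list may be shared. TAC NRG replicates 4 and 5 had the largest red cell sums, 3503 and 3358 CPM, and the highest Atpif1 values, 543 and 507 CPM. Sham saline replicates 4 and 5 had red cell sums of 2237 and 1866 CPM, within the TAC NRG range, with Atpif1 at 214 and 239 CPM. The part of red cell RNA in the Atpif1 values was not tested.

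Markers of other cell types differed between the same groups. Of 8 fibroblast markers, 6 rose in TAC saline against sham saline, and their summed level ranged from 1813 to 3347 CPM in TAC NRG, 1386 to 2633 CPM in TAC saline and 983 to 1114 CPM in sham saline libraries. Of 8 macrophage markers 6 rose, with sums of 465 to 830, 553 to 1003 and 481 to 770 CPM in the same order, and of 8 endothelial markers 0 rose, with sums of 1198 to 1373, 1264 to 1525 and 1167 to 1259 CPM. The endothelial sums of TAC saline thus lay above those of sham saline. In that comparison 7 of the 8 were above 0, with a median of 0.23 and a smallest limma adjusted p of 0.0533. Of 10 cardiomyocyte markers 3 fell (Atp2a2, Ryr2 and Tnni3) and 1 rose (Actc1). In that list 9 of 10 were below 0, with a median of -0.20, where the respiratory chain members had a median of -0.24. The medians of the list and the members were further apart in the other comparisons. They were 0.03 and 0.12 in TAC NRG against TAC saline, and -0.24 and -0.11 in TAC NRG against sham saline. Of all tested genes 4.24% fell and 6.47% rose in TAC saline against sham saline. The shares were 0.626% and 0.672% in TAC NRG against TAC saline, and 7.39% and 8.74% in TAC NRG against sham saline. In TAC NRG against TAC saline, all 8 endothelial markers had negative log2 fold changes and 1 (Cdh5) fell, and of the cardiomyocyte markers 0 fell and 1 (Tnnt2) rose, while 0 of 8 fibroblast and 0 of 8 macrophage markers passed. TAC NRG against sham saline gave 5 cardiomyocyte markers that fell (Atp2a2, Ryr2, Myh6, Tnni3 and Ckm) and 1 that rose (Actc1), with 6 fibroblast and 2 macrophage markers higher and 0 endothelial markers called. All 40 listed markers of these types, red cells included, were tested, and the part of cell composition in the decrease of the subunit genes was not tested. In bulk tissue, fewer cells of a type and less RNA per cell cannot be told apart.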

How the data were processed

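Frozen left ventricle gave total RNA by Tri Reagent extraction, which was sequenced as 3′-end barcoded libraries, per the labels' protocols. The genome build was GRCm39, per the submitters' processing notes; the aligner, the counter and the scaling were not given in the sources used here. Each deposited file lists 1 log2 value per gene for 1 library. The values were found to equal the log2 of the read count plus 0.5 times a factor per library: taken out of the log they gave whole reads within 0.05 for 98.9% to 99.5% of genes, and for 100% of those under 1000 reads, which gives depths of 2017463 to 5621771 reads. CPM are these deposited values out of the log, divided by 1000.

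The log2 values of all 15 libraries entered 1 fit of limma 3.58.1 (R 4.3.3), in which variance followed mean level. It took the 11018 genes that had 2.95 CPM by total reads or more (10 reads at median depth) in 5 libraries or more and 15 reads or more over all libraries. Differences were two-sided and called at an adjusted p under 0.05 (Benjamini-Hochberg over all tested genes). The fit was tested on simulated data. Other tables and figures were made in Python 3.11.15. No library pair of a group agreed within sampling noise. Replicate numbers are shared between groups, but the correlations of same-numbered libraries ran from -0.30 to 0.09 and none passed 0.1, so libraries were not paired. Promoter windows and coding and transcript lengths came from RefSeq and GENCODE tables on GRCm38, matched by symbol; no coordinates were converted.

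Genes were named by a fixed rule: all complex II genes, catalytic core and isoform genes, the 3 largest called changes per complex and comparison, the 2 smallest per complex, and members left out by the filter; others were named, after their values were seen, where a count or an extreme called for it. The members and lists were chosen with earlier results of these data known. Alternatives covered scaling, filter, pseudocount, spread, thinning, blocks, thresholds and leaving out libraries. The values of 1 member are not reported here by name.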

Additional observations from a re-analysis of the deposited data

Results flagged for a closer look

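Within groups of 5 libraries, a single library stood apart from the other 4 (Dixon's criterion) in 12 of 246 member and group pairs, or 4.88%, where chance gives about 5%. Of these, 8 lay in sham saline replicate 3. It was high for Cox4i1 (2979 CPM, others 2569 to 2644), Uqcrq (602 CPM, others 549 to 564), Ndufb5 (615 CPM, others 521 to 532), Ndufa2 (209 CPM, others 168 to 176) and Atp5mpl (274 CPM, others 235 to 244). It was low for Cyc1 (772 CPM, others 1013 to 1046), Sdhc (740 CPM, others 885 to 896) and Ndufv3 (235 CPM, others 265 to 275). The other 4 were high values of TAC saline replicate 3, in Atp5g1 (1292 CPM, others 912 to 1004), Ndufa11 (388 CPM, others 319 to 327), Ndufa6 (576 CPM, others 437 to 474) and Ndufv3 (285 CPM, others 207 to 224). The cause was not tested.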

How the results depend on the processing

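In TAC saline against sham saline, 24 members fell. Leaving out 1 library at a time gave 8 to 53. The count was 9 with total reads as the only scaling, 50 with array weights, 38 with only the 2 groups compared, 7 at an adjusted p under 0.01, 41 under 0.1, and 62 without TAC NRG replicates 4 and 5 and TAC saline replicate 3. Of all tested genes 4.24% fell in the main fit and 1.82% to 5.86% with 1 library left out. That share was 1.73% with total reads only, 6.51% with array weights, 5.41% with the 2 groups alone and 7.12% without these 3 libraries. No share of all tested genes was counted at an adjusted p under 0.01 or under 0.1. With the length trend removed 1 member rose, where 701 of 10906 tested genes did. In TAC NRG against TAC saline, 0 members were called under every alternative run, except 1 that rose when TAC NRG replicate 3 was left out (0 to 1 over these fits). In TAC NRG against sham saline 9 members fell, and leaving out 1 library gave 5 to 11. The count was 3 with total reads only (1 rose), 16 with reads of mtDNA-encoded genes out of the total, 18 without TAC NRG replicates 4 and 5, 24 without these and TAC saline replicate 3, 18 with the length trend removed, 2 at an adjusted p under 0.01 and 14 under 0.1 (1 rose). Of all tested genes 7.39% fell here in the main fit and 5.36% to 8.14% with 1 library left out. The share was 3.94% with total reads only (where 1364 of 11018 rose), 7.99% with mtDNA-encoded genes out of the total and 7.13% with the length trend removed. Without TAC NRG replicates 4 and 5 it was 5.28%, and without TAC saline replicate 3 as well it was 5.93%. For the thresholds of 0.01 and 0.1 no such share was counted here either. Replicate numbers do not pair the libraries. With the replicate block, 17 fell in TAC saline against sham saline and 5 in TAC NRG against sham saline, where 3.51% and 6.94% of all tested genes fell. The median of complex III changed sign in TAC NRG against sham saline with total reads only (0.0139, where the main value was -0.0794) and in TAC NRG against TAC saline with the length trend removed (-0.0348, where the main value was 0.126). That of complex IV in TAC NRG against sham saline, -0.0927, was 0.0005 with total reads only. That of complex II in TAC NRG against TAC saline, 0.0029, lay near 0 and took either sign, for example -0.0138 with total reads only and -0.0165 without TAC NRG replicates 4 and 5. The cause of these shifts was not tested.

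The count-model tests planned as alternatives were not run. All fits used limma on log2 values, either the deposited ones or those of the recovered reads. The weighted fit on recovered reads, the removal of 3 libraries and the length step were chosen after seeing the data. Depth limits low genes most: Cox4i2, Atp5l and Atp5g2 stood at 6.12 to 7.94 CPM.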
